A study of Mus musculus with 9 samples.

Results

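Protocadherins are cell surface adhesion proteins of the cadherin superfamily. Genes were taken by symbol, as Pcdh followed by any cluster letter and a number, and those with a summed count of at least 90 over the 9 libraries were described. The rule matched 37 of 34590 genes in the files and kept 36, of which 2 belong to the alpha cluster, 21 to the beta cluster, 1 to the gamma cluster and 12 lie outside the clusters. The member just inside the limit was Pcdhb13 with a summed count of 209, and the gene just outside it was Pcdhb1 with 12, which was not tested.

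RNA came from the dissected telencephalons of mouse embryos at midgestation (E12.5, the embryonic day), on a strain background labelled as mixed. The study set 4 double knockout embryos (dKO), in which Nestin-Cre was combined with knockout of both Lats1 and Lats2, against 5 wild-type embryos (WT), with 1 library for each embryo. Lats1 and Lats2 are Hippo pathway kinases that restrain the coactivators YAP and TAZ. The Nestin-Cre transgene acts in neural progenitors and passes the deletion to their descendants, so other cells of the tissue keep the genes. Whether the WT embryos carried floxed alleles or Cre is not given in the sources used here. Synthetic ERCC spike-in RNAs were added per counted cell, so each gene can be read relative to the rest of its library and per cell.

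The clustered protocadherins lie in tandem arrays, and each neuron transcribes its own set of them by choosing among many promoters, with the insulator protein CTCF and cohesin at work there. Their products bind like with like and help a neuron to tell its own branches from those of other cells. Variable exons of the alpha and gamma clusters are spliced to exons shared by the whole cluster, while beta genes have no such shared exons. The non-clustered members, many of them called delta protocadherins, act in cell adhesion, cell sorting, axon outgrowth and synapse formation in the developing brain.

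Library depth lay between 16566763 and 45803152 gene counts in dKO and between 12906561 and 39263370 in WT. There were 71.1 to 83.7 gene counts per spike-in count in dKO and 49.9 to 63.5 in WT. Lats1 stood at 58.8 to 61.3 CPM (counts scaled by TMM to a common library size) in dKO libraries, against 124.7 to 136.4 CPM in WT, a log2 fold change of -1.15 (SE 0.04). Lats2 averaged 43.4 ± 9.46 CPM in dKO and 27.0 ± 6.18 CPM in WT (SD, n = 4 and 5), with every dKO library above every WT library. Its log2 fold change was 0.69 (SE 0.18, edgeR adjusted p = 0.0144), and 0.42 without WT 2, 3 and 4 (adjusted p = 0.209). Lats2 was thus higher in dKO and did not mark the knockout in counts over the whole gene. Reads in no gene made up 32.03% to 35.6% of all reads in dKO, against 39.3% to 41.3% in WT 2, 3 and 4 and 32.5% and 34.4% in WT 5 and WT 1. WT 2, 3 and 4 thus stood apart, and the protocadherin results below are also given without them. Telencephalon markers were detected in every library, among them Emx1, Emx2 and Lhx2.

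Relative to their libraries, 11 of the 36 protocadherins (30.6%) fell in dKO telencephalons and none rose, by edgeR's quasi-likelihood test at a Benjamini-Hochberg adjusted p under 0.05. Over all 17182 genes tested, 12% were called lower and 13.7% higher, 25.7% in either direction. The falls were spread over the groups, with Pcdh1, Pcdh8, Pcdh9, Pcdh15 and Pcdh17 among the 12 non-clustered genes, Pcdha4 of the 2 alpha genes, Pcdhb5, Pcdhb7, Pcdhb13 and Pcdhb19 among the 21 beta genes, and Pcdhga9. At an unadjusted p under 0.05, 1 gene (Pcdh18) was higher and 19 were lower. The share of all genes at that limit was not counted, so these 2 counts show nothing particular to protocadherins. Neither DESeq2 nor limma-voom called any member higher. The groups of libraries did not overlap for 5 of the 36 members, all lower in dKO (Pcdhga9, Pcdh1, Pcdh8, Pcdh15 and Pcdh17). Of all genes tested, 9.74% were lower in dKO with no overlap. The median log2 fold change over all 36 members was -0.45, beside -0.01 over all genes.

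Without WT 2, 3 and 4, the members called lower were 2 of 36 (5.56%), Pcdh1 and Pcdh8, beside 0.949% of all genes, and none was called higher, beside 2.51%. In that comparison, 2 members were higher and 6 lower at an unadjusted p under 0.05 with edgeR, a limit at which all genes were not counted. The median of the 36 members was then -0.10. In bulk tissue, fewer cells of a type and less RNA per cell cannot be told apart, so each difference is one of the whole tissue.

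**Figure D1:**
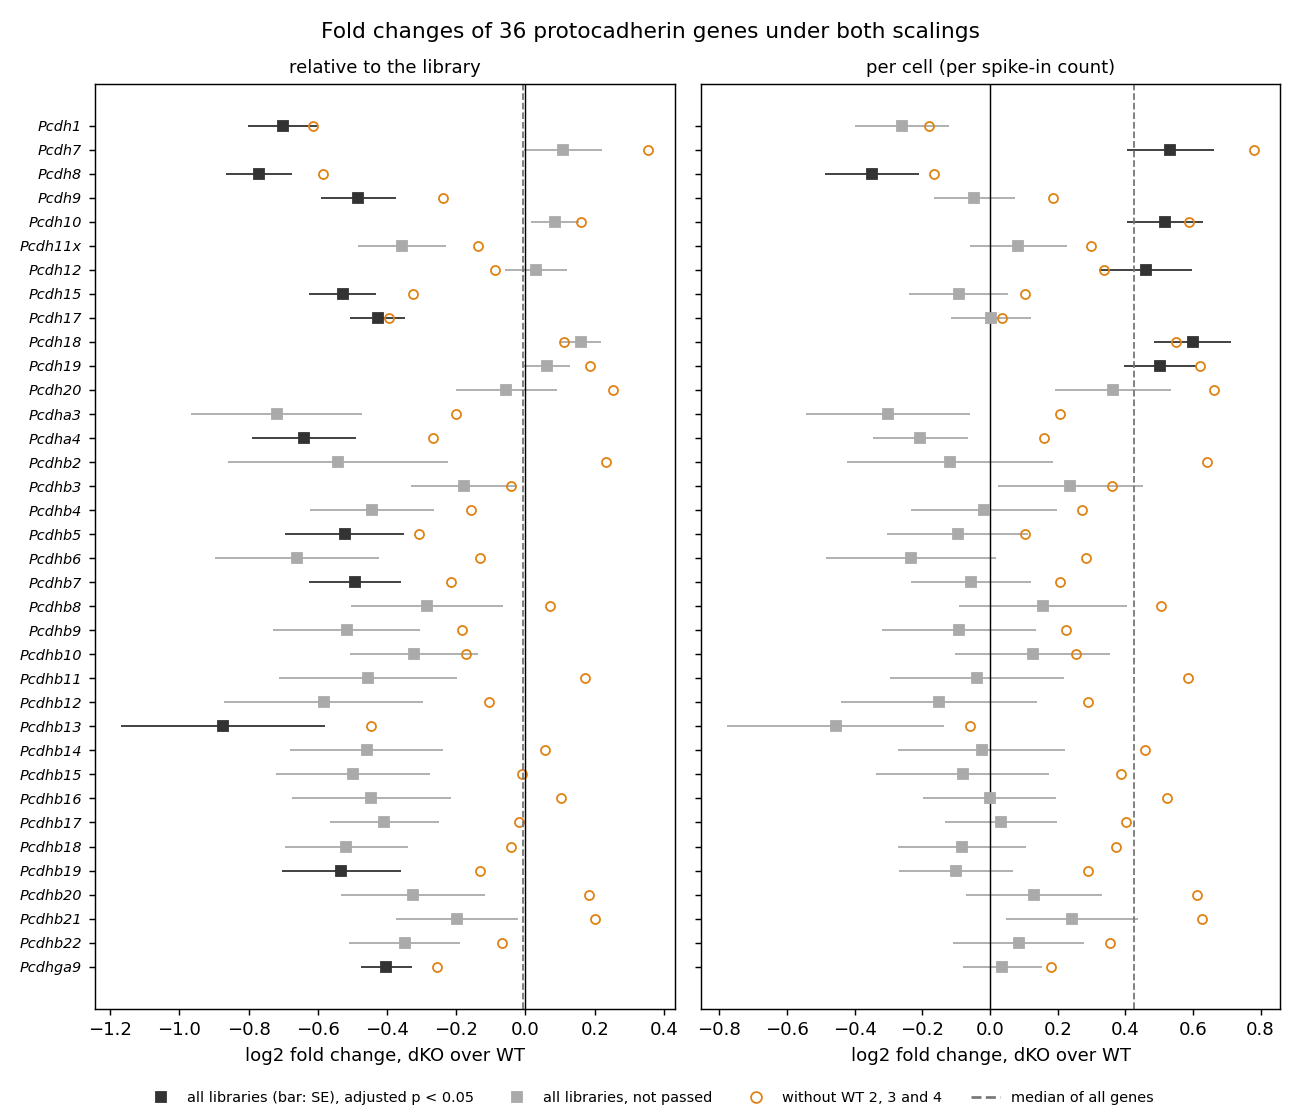
Log2 fold changes of the 36 protocadherins, dKO over WT, relative to the library (left) and per spike-in count (right), with SE bars for all 9 libraries, open circles for the fit without WT 2, 3 and 4, and a dashed line at the median of all genes. On the left 31 of 36 squares lie below 0, beside the dashed line at -0.01, and most circles lie closer to 0. On the right Pcdh7, Pcdh10, Pcdh12, Pcdh18 and Pcdh19 lie near the dashed line at 0.43 and the clustered genes lie to its left.

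Among the non-clustered genes, the per-length level was highest for Pcdh18, Pcdh19 and Pcdh9 and lowest for Pcdh15. Per kilobase of exon in GENCODE M21, Pcdh18 averaged 18.4 ± 1.88 CPM in dKO and 16.5 ± 0.55 CPM in WT, and Pcdh19 averaged 14.7 ± 0.91 CPM in dKO and 14.0 ± 1.29 CPM in WT (SD, n = 4 and 5). Pcdh9 averaged 11.1 ± 0.88 CPM per kilobase in dKO and 15.5 ± 2.52 in WT, which in WT is within its SD of Pcdh18 and Pcdh19. Below these 3 came Pcdh10 with 6.92 ± 0.58 CPM per kilobase in dKO and 6.50 ± 0.55 in WT, and then Pcdh7, Pcdh17, Pcdh8, Pcdh1, Pcdh12, Pcdh11x and Pcdh20, which ran from 5.49 to 1.28 in dKO and from 5.59 to 1.33 in WT. Pcdh15 lay lowest, with 0.40 CPM per kilobase in dKO and 0.57 in WT. Within this middle range the order differed between the groups, with Pcdh8 ahead of Pcdh7 and Pcdh17 in WT and behind both in dKO, although Pcdh8 and Pcdh7 lay within 1 SD of each other in WT.

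Promoter windows of 9 non-clustered members were searched, from RefSeq on build GRCm38.p6, covering 250 bases before to 50 bases after the start site. Pcdh1, Pcdh11x and Pcdh12 were not searched, so the counts of matches below do not cover them. The letters GGAATG, the core of sites bound by the TEAD partners of YAP and TAZ, were in none of the 9 on either strand. They were in 14.7% of 32851 promoters, and 9 windows are too few to tell none from that share. The CCAAT box letters AGCCAAT, searched on both strands and chosen after the sequences had been seen, were in 4 of the 9. They were in 7.86% of all promoters, but a choice made on these windows leaves no test against that share. The shorter core CCAAT, on either strand, was also in the windows of Pcdh9, Pcdh10, Pcdh15 and Pcdh20. The 4 windows with AGCCAAT are shown because they include Pcdh8 and Pcdh17, which fell relative to the library, and Pcdh18 and Pcdh19, which did not. Capitals mark AGCCAAT, here read on the opposite strand as ATTGGCT. The first capital lay 68, 58, 32 and 65 bases before the start site in the order printed. A further core in Pcdh17, read as attgg, is left in small letters. Their positions are chr14:79771263-79771562 on the minus strand for Pcdh8, chr14:84443313-84443612 on the plus strand for Pcdh17, chr3:49757267-49757566 on the minus strand for Pcdh18 and chrX:133688944-133689243 on the minus strand for Pcdh19.
Pcdh8: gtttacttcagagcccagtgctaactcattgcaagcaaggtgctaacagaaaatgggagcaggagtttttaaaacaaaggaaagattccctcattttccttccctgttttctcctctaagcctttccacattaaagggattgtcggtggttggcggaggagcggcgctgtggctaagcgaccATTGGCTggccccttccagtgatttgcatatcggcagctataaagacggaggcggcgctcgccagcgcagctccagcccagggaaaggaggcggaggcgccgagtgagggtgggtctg
Pcdh17: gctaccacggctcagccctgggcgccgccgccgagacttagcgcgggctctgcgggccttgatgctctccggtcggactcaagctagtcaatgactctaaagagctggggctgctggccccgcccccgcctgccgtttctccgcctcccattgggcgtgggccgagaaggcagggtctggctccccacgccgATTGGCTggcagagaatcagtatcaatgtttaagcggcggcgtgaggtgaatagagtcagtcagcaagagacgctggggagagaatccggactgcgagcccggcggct
Pcdh18: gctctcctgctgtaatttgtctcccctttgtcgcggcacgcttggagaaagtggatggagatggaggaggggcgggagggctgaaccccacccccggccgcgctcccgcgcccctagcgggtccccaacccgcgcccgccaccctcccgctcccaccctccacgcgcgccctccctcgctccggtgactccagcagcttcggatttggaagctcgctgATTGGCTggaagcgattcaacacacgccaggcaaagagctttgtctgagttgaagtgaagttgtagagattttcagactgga
Pcdh19: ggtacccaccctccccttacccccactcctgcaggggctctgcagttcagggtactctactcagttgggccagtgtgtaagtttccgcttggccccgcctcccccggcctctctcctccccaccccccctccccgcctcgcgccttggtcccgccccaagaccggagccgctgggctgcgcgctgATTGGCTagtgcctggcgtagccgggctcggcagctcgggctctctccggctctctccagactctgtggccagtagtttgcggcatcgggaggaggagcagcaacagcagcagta
A match describes these letters only.

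Pcdh8, known as arcadlin or paraxial protocadherin and active in cell sorting and at synapses, had the largest fall among the non-clustered genes relative to the library. It stood at 15.9, 14.8, 14.5 and 14.3 CPM in dKO 1 to 4, against 20.7, 24.3, 29.2, 28.7 and 23.8 CPM in WT 1 to 5. Every dKO library was below every WT library, and the log2 fold change was -0.77 (SE 0.10, edgeR adjusted p = 0.000342). With WT 2, 3 and 4 left out it was -0.59, with an adjusted p of 0.0158.

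Pcdh1, a delta protocadherin also known from airway epithelium, fell nearly as much. It stood at 20.4, 25.5, 29.5 and 23.01 CPM in dKO 1 to 4, against 35.0, 42.6, 41.7, 40.4 and 40.1 CPM in WT 1 to 5. The groups did not overlap, with a log2 fold change of -0.70 (SE 0.10, edgeR adjusted p = 0.000709). It was -0.61 without WT 2, 3 and 4, with an adjusted p of 0.0489.

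Pcdh17, which acts in axon extension and at synapses of the basal ganglia, stood at 49.0, 45.2, 52.7 and 39.1 CPM in dKO 1 to 4, against 64.7, 65.3, 65.8, 59.9 and 58.2 CPM in WT 1 to 5. Every dKO library was below every WT library. WT 2, 3 and 4 were not set apart for this gene, since WT 1 was among the higher WT libraries. The log2 fold change was -0.43 (SE 0.08, edgeR adjusted p = 0.00281), and without WT 2, 3 and 4 it was -0.39 with an adjusted p of 0.0964.

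Pcdh15, whose product forms the tip links of hair cells in the inner ear, was the lowest per length of the 12 non-clustered genes. It stood at 9.49, 9.10, 8.87 and 10.2 CPM in dKO 1 to 4, against 12.3, 14.5, 15.2, 14.2 and 11.3 CPM in WT 1 to 5. The groups did not overlap, but WT 2, 3 and 4 were the 3 highest libraries. The log2 fold change was -0.53 (SE 0.10, edgeR adjusted p = 0.00269), and without those 3 libraries -0.33 with an adjusted p of 0.144.

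Pcdh9, a delta protocadherin of the cortex, stood at 76.0, 66.8, 80.6 and 78.0 CPM in dKO 1 to 4, against 79.9, 118, 107, 122 and 97.2 CPM in WT 1 to 5. The groups overlapped through dKO 3 and WT 1, and WT 2, 3 and 4 were again the highest. Pcdh9 fell by 0.48 on the log2 scale (SE 0.11, edgeR adjusted p = 0.00762); without those 3 libraries its log2 fold change was -0.24, with an adjusted p of 0.202.

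Pcdh11x, an X-linked delta protocadherin, gave values of the same kind without passing the test. It stood at 23.1, 19.8, 24.4 and 31.1 CPM in dKO 1 to 4, against 26.5, 32.8, 35.5, 34.0 and 27.2 CPM in WT 1 to 5. The groups overlapped through dKO 4, and the log2 fold change was -0.36 (SE 0.13, edgeR adjusted p = 0.0592). It was -0.14 without WT 2, 3 and 4 (adjusted p = 0.667).

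**Figure D2:**
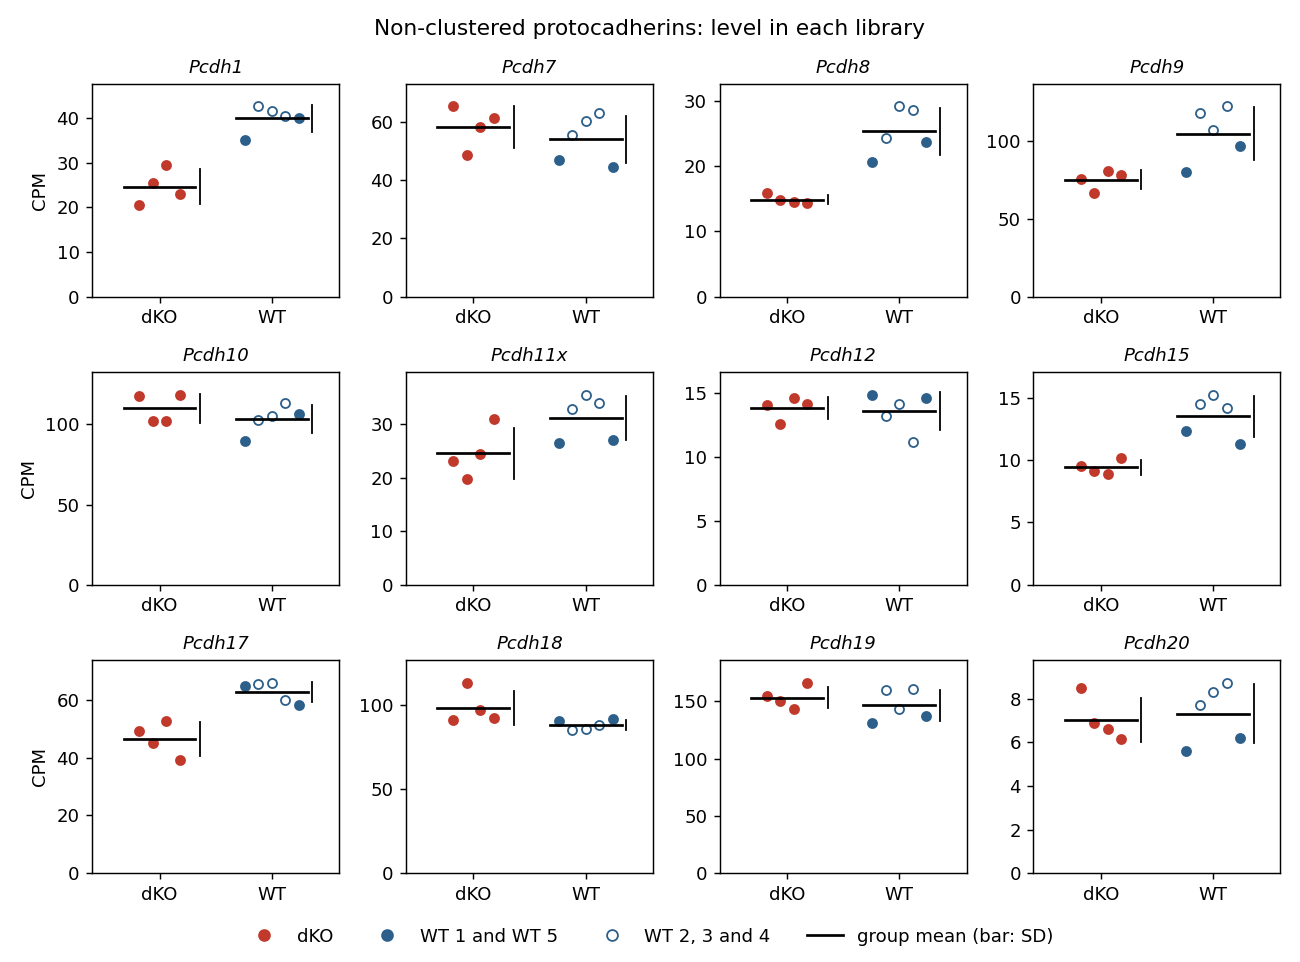
TMM-scaled CPM of the 12 non-clustered protocadherins in each library, with filled red points for dKO, filled blue points for WT 1 and WT 5, open points for WT 2, 3 and 4, and group means with SD bars. All dKO points lie below all WT points for Pcdh1, Pcdh8, Pcdh15 and Pcdh17, and the open points are the highest of the 9 for Pcdh1, Pcdh8, Pcdh9, Pcdh11x and Pcdh15.

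The other 6 non-clustered genes did not pass relative to the library, with or without WT 2, 3 and 4. Pcdh10, Pcdh18 and Pcdh19 are delta protocadherins of the developing brain, Pcdh10 known from axon growth in the striatum, Pcdh18 as a binding partner of Dab1, and Pcdh19 as a partner of N-cadherin whose human gene is mutated in an X-linked epilepsy. Pcdh19, the highest of the 12 in CPM, stood at 154, 150.0, 143 and 166 CPM in dKO 1 to 4, against 131, 160.1, 143, 161 and 138 CPM in WT 1 to 5. Pcdh10 stood at 117, 102, 102 and 118 CPM in dKO 1 to 4, against 89.4, 103, 105, 113 and 106 CPM in WT 1 to 5. Both overlapped between the groups, with relative log2 fold changes of 0.06 for Pcdh19 (edgeR adjusted p = 0.536) and 0.09 for Pcdh10 (adjusted p = 0.398). Without WT 2, 3 and 4 these were 0.19 for Pcdh19 (adjusted p = 0.140, unadjusted p = 0.0158) and 0.16 for Pcdh10 (adjusted p = 0.361).

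Pcdh18 stood at 91.5, 113, 97.4 and 92.2 CPM in dKO 1 to 4, against 90.8, 85.3, 85.6, 88.05 and 91.7 CPM in WT 1 to 5. Only dKO 1 reached into the WT range, and the relative log2 fold change of 0.16 (SE 0.06) did not pass (edgeR adjusted p = 0.0728), nor did the value of 0.11 without WT 2, 3 and 4 (adjusted p = 0.552). Pcdh7, a delta protocadherin that binds protein phosphatase 1, stood at 65.3, 48.5, 58.1 and 61.2 CPM in dKO 1 to 4, against 46.7, 55.4, 60.4, 62.9 and 44.4 CPM in WT 1 to 5. The groups overlapped, with a log2 fold change of 0.11 (edgeR adjusted p = 0.531). WT 1 and WT 5 were the lowest of the 9 libraries, and leaving out WT 2, 3 and 4 gave 0.35 (adjusted p = 0.116, unadjusted p = 0.0107).

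Pcdh12, the protocadherin of vascular endothelium, stood at 14.0, 12.6, 14.6 and 14.1 CPM in dKO 1 to 4, against 14.8, 13.2, 14.1, 11.1 and 14.5 CPM in WT 1 to 5. Pcdh20, the remaining member outside the clusters, stood at 8.47, 6.90, 6.59 and 6.17 CPM in dKO 1 to 4, against 5.58, 7.71, 8.29, 8.71 and 6.20 CPM in WT 1 to 5. Both overlapped between the groups, with log2 fold changes of 0.03 for Pcdh12 (edgeR adjusted p = 0.833) and -0.06 for Pcdh20 (adjusted p = 0.820). Both turned sign without WT 2, 3 and 4, to -0.09 for Pcdh12 (adjusted p = 0.678) and 0.25 for Pcdh20 (adjusted p = 0.443), and neither passed. The summed level of 12 endothelial markers was 255 to 335 CPM in dKO and 258 to 337 CPM in WT. Of the 12, 1 (Flt1) passed as higher in dKO relative to the library, beside 13.7% of all genes. Flt1 did not pass without WT 2, 3 and 4 (log2 fold change 0.14, edgeR adjusted p = 0.579).

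Per cell, scaled by spike-in counts, 5 of the 36 protocadherins (13.9%) rose in dKO and 1 (2.78%) fell, beside 61.1% and 0.698% of all genes, 61.8% in either direction. The genes that rose were Pcdh7, Pcdh10, Pcdh12, Pcdh18 and Pcdh19, all outside the clusters, and none of the 24 clustered genes passed in either direction with edgeR, DESeq2 or limma-voom. Every dKO library was above every WT library for these 5, as for 48.4% of all genes. Their log2 fold changes, from 0.46 to 0.60, lay close to the median of 0.43 over all genes. At an unadjusted p under 0.05, 6 members were higher, with Pcdh20 as the sixth, and 1 was lower. The share of all genes at that limit was not counted.

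Pcdh18 stood at 64.0, 95.4, 76.6 and 76.0 counts per 10000 spike-in counts in dKO 1 to 4, against 49.2, 42.4, 54.6, 53.7 and 57.2 in WT 1 to 5. Its per-cell log2 fold change was 0.60 (SE 0.11, edgeR adjusted p = 5.60e-05). Pcdh19 stood at 108, 126, 113 and 137 counts per 10000 spike-in counts in dKO 1 to 4, against 71.1, 79.6, 91.1, 98.3 and 85.9 in WT 1 to 5. Both genes were clear of the WT range in all 4 dKO libraries, Pcdh19 with a per-cell log2 fold change of 0.50 (SE 0.11, edgeR adjusted p = 0.000223).

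Pcdh10 stood at 82.1, 85.9, 80.3 and 97.6 counts per 10000 spike-in counts in dKO 1 to 4, against 48.4, 51.1, 66.9, 69.1 and 66.3 in WT 1 to 5, with a log2 fold change of 0.52 (SE 0.11, edgeR adjusted p = 0.000268). Pcdh7 stood at 45.7, 40.9, 45.7 and 50.4 in dKO 1 to 4, against 25.3, 27.6, 38.5, 38.4 and 27.7 in WT 1 to 5, with a log2 fold change of 0.53 (SE 0.13, edgeR adjusted p = 0.000712). Pcdh7, Pcdh10, Pcdh18 and Pcdh19 also passed per cell without WT 2, 3 and 4. Pcdh12 stood at 9.79, 10.6, 11.5 and 11.6 counts per 10000 spike-in counts in dKO 1 to 4, against 8.03, 6.55, 8.998, 6.79 and 9.08 in WT 1 to 5. Its log2 fold change of 0.46 (SE 0.14, edgeR adjusted p = 0.00474) was 0.34 without those 3 libraries, with an adjusted p of 0.106.

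Pcdh8 was the member called lower per cell, at 11.1, 12.45, 11.4 and 11.8 counts per 10000 spike-in counts in dKO 1 to 4, against 11.2, 12.1, 18.6, 17.5 and 14.9 in WT 1 to 5. The groups overlapped, since WT 1 and WT 2 were within the dKO range. Its log2 fold change of -0.35 (SE 0.14, edgeR adjusted p = 0.0289) was -0.17 without WT 2, 3 and 4, with an adjusted p of 0.402, and the call was also lost with the replicate number as a block and without dKO 3 (where Pcdh1 passed in its place), WT 3 or WT 4. Pcdh1 gave -0.26 (adjusted p = 0.103), Pcdh9 -0.05 (adjusted p = 0.748) and Pcdh17 0.00 (adjusted p = 0.982) per cell. Without WT 2, 3 and 4, the per-cell calls were 7 higher (19.4%), Pcdh7, Pcdh10, Pcdh18, Pcdh19, Pcdh20, Pcdhb20 and Pcdhb21, and none lower with edgeR, beside 49.1% and 0.25% of all genes.

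In the alpha cluster, counts stood on 2 symbols, and Pcdha4 had a summed count 22.5 times that of Pcdha3. The GENCODE M21 annotation lists 13 alpha and 22 gamma symbols, of which the files held 2 and 1. Since those genes share constant exons, the counts of Pcdha4 and Pcdhga9 cannot be taken as those of 1 isoform, and other alpha and gamma symbols were not analysed here. Pcdha4 stood at 52.1, 41.1, 53.0 and 59.3 CPM in dKO 1 to 4, against 58.5, 89.0, 91.6, 94.4 and 64.6 CPM in WT 1 to 5. The groups overlapped only through dKO 4 and WT 1, and WT 2, 3 and 4 were well above the other 6 libraries. Its relative log2 fold change was -0.64 (SE 0.15, edgeR adjusted p = 0.00967), and -0.27 without those 3 libraries (adjusted p = 0.277). Pcdha3 stood at 2.28, 1.44, 2.37 and 2.75 CPM in dKO 1 to 4, against 2.06, 3.81, 4.95, 4.10 and 2.84 CPM in WT 1 to 5, with a log2 fold change of -0.72 (SE 0.25) that did not pass (edgeR adjusted p = 0.0528) and was -0.20 without those 3 libraries (adjusted p = 0.750).

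Pcdhga9, the gamma symbol with counts, had 36.4 times the summed count of the highest beta gene. It stood at 301, 322, 365 and 312 CPM in dKO 1 to 4, against 374, 456, 450.2, 464 and 401 CPM in WT 1 to 5. The groups did not overlap, with dKO 3 next to WT 1, and the log2 fold change was -0.40 (SE 0.07, edgeR adjusted p = 0.00289). It was -0.25 without WT 2, 3 and 4 (adjusted p = 0.123). Per cell, Pcdhga9 had a log2 fold change of 0.04 (edgeR adjusted p = 0.795).

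All 21 beta genes had a relative log2 fold change below 0, from -0.87 to -0.18 with a median of -0.46. The median over all genes was -0.01, so about as many genes lay below 0 as above it. Of the beta genes, 4 (19%) passed the test, beside 12% of all genes called lower. Counts of the 21 beta genes were low, from 4 to 497 in a library. Pcdhb19, the beta gene with the highest CPM, stood at 9.05, 6.68, 8.22 and 9.95 CPM in dKO 1 to 4, against 8.87, 14.1, 15.4, 12.6 and 9.53 CPM in WT 1 to 5. WT 1 and WT 5 were within the dKO range, and Pcdhb19 fell by 0.53 on the log2 scale (SE 0.17, edgeR adjusted p = 0.0406). Its log2 fold change was -0.13 without WT 2, 3 and 4 (adjusted p = 0.715).

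Pcdhb7 stood at 5.04, 5.16, 4.99 and 5.92 CPM in dKO 1 to 4, against 5.50, 8.33, 8.58, 7.65 and 6.56 CPM in WT 1 to 5, and fell by 0.49 (SE 0.13, edgeR adjusted p = 0.0189). Pcdhb5 stood at 2.64, 2.53, 3.08 and 1.89 CPM in dKO 1 to 4, against 3.36, 4.30, 4.46, 3.26 and 3.05 CPM in WT 1 to 5, and fell by 0.52 (SE 0.17, edgeR adjusted p = 0.0444). Each overlapped between the groups through a single dKO library. Pcdhb13, the lowest beta gene tested, stood at 0.643, 0.578, 0.514 and 0.244 CPM in dKO 1 to 4, against 0.917, 1.28, 1.08, 0.928 and 0.589 CPM in WT 1 to 5, and fell by 0.87 (SE 0.29, edgeR adjusted p = 0.0484). None of these 3 passed without WT 2, 3 and 4 by edgeR, with log2 fold changes of -0.22, -0.31 and -0.45 and adjusted p of 0.476, 0.499 and 0.604. Without those libraries, 14 of 21 beta genes were below 0 and the beta median was -0.04. The median over all genes was then -0.0003, so about as many genes lay below 0 as above it.

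The clustered genes shared a pattern over the libraries. In 21 of the 36 members (58.3%), WT 2, 3 and 4 were all above the other 6 libraries, against 11.9% of all genes. These members were both alpha genes, Pcdhga9, 13 of 21 beta genes (61.9%) and 5 of 12 non-clustered genes (41.7%). Summed beta CPM was 70.7, 64.1, 66.5 and 79.3 in dKO 1 to 4, against 69.2, 111, 117, 97.1 and 73.7 in WT 1 to 5, so WT 1 and WT 5 lay within the dKO range. Summed alpha CPM was 54.4, 42.5, 55.4 and 62.1 in dKO 1 to 4, against 60.6, 92.8, 96.6, 98.5 and 67.4 in WT 1 to 5. Between WT libraries alone, the median log2 ratio of WT 2, 3 and 4 over WT 1 and WT 5 was 0.59 for beta genes and 0.25 for non-clustered genes, against 0.0008 over all genes. The same 3 libraries had the highest share of reads in no gene, and its part in these levels was not tested.

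**Figure D3:**
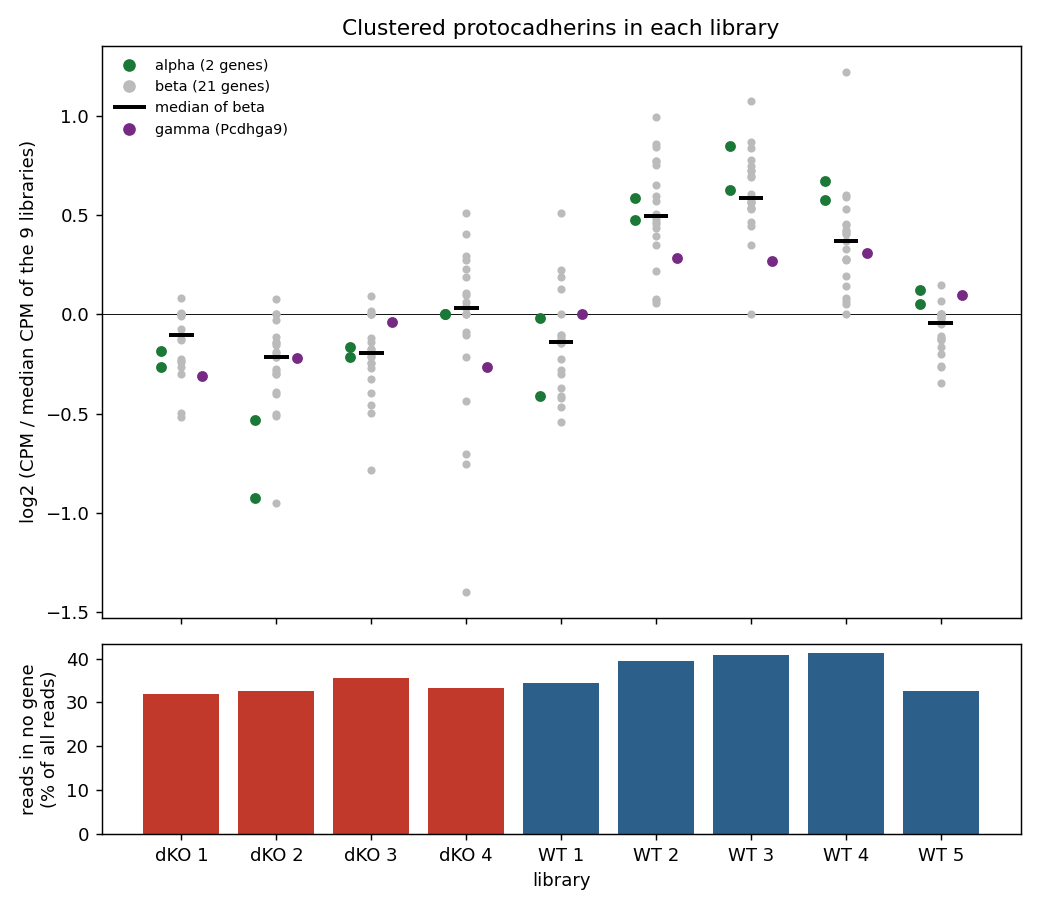
Upper panel, log2 of the CPM of each clustered protocadherin over its own median in the 9 libraries, with green points for alpha, grey for beta with a black line at their median, and purple for Pcdhga9; lower panel, reads in no gene as a percentage of all reads. The beta medians and the bars of WT 2, 3 and 4 stand above those of the other 6 libraries, and the beta medians of WT 1 and WT 5 lie beside those of dKO.

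Per cell, the beta genes had a median log2 fold change of -0.04, from -0.46 to 0.24, and 7 of 21 were above 0, beside a median of 0.43 over all genes. Summed beta counts per 10000 spike-in counts averaged 55.3 ± 6.97 in dKO and 54.5 ± 14.1 in WT (SD, n = 4 and 5). The non-clustered genes had a per-cell median of 0.22, with 8 of 12 above 0, and their sum averaged 501 ± 37.5 per 10000 spike-in counts in dKO and 402 ± 54.4 in WT. Without WT 2, 3 and 4, the per-cell medians were 0.36 for beta and 0.32 for non-clustered genes, both nearer to the median of all genes.

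Within the beta cluster, the makeup by gene was close in both genotypes. Pcdhb19 made up 12.03% ± 1.09 of summed beta CPM in dKO and 12.9% ± 0.15 in WT, and Pcdhb17 11.2% ± 0.59 in dKO and 11.0% ± 0.55 in WT (SD, n = 4 and 5). The 7 genes from Pcdhb16 to Pcdhb22 together made up 59.1% ± 1.94 in dKO and 58.1% ± 1.83 in WT. Per kilobase of exon, Pcdhb17 led with 1.68 ± 0.14 CPM in dKO and 2.21 ± 0.53 in WT, followed in WT by Pcdhb7 with 1.51 CPM per kilobase in dKO and 2.09 in WT. The share of 1 gene, Pcdhb21, did not overlap between the groups, at 6.30% to 7.38% in dKO and 5.57% to 6.19% in WT, a gene singled out after its values were seen. Across the 21 beta genes, mean CPM in dKO and WT had a Spearman rho of 0.978, a description over genes that share libraries and are not independent.

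**Figure D4:**
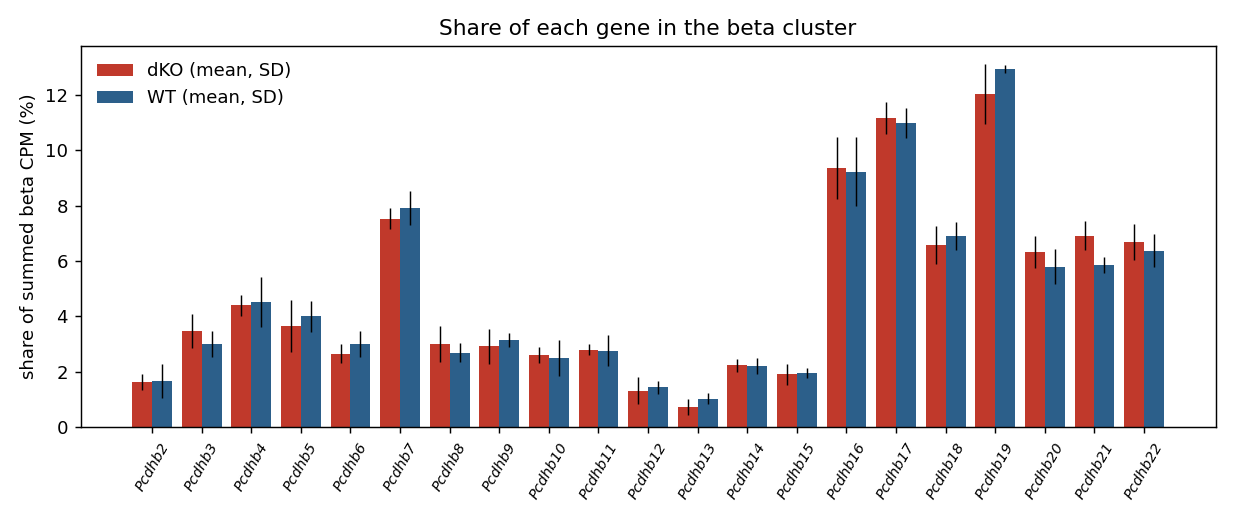
Share of each beta protocadherin in summed beta CPM, in percent, as means with SD bars for 4 dKO libraries (red) and 5 WT libraries (blue). Bars of the same gene differ by little between the groups, with Pcdhb19, Pcdhb17 and Pcdhb16 the largest, and Pcdhb16 to Pcdhb22 hold 59.1% in dKO and 58.1% in WT.

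Of the genes that act on promoter choice and chromatin at the clusters, 22 were tested, and relative to the library 4 rose (Stag2, Wapal, Smchd1 and Rest) and 4 fell (Mau2, Tet1, Tet2 and Tet3), with a median log2 fold change of 0.03, beside 13.7% of all genes higher and 12% lower. Ctcf, which anchors promoter loops at the clusters, averaged 198 ± 10.4 CPM in dKO and 195 ± 4.88 CPM in WT (SD, n = 4 and 5), with a relative log2 fold change of 0.03 (edgeR adjusted p = 0.687) and a per-cell one of 0.46 (adjusted p = 0.000469). The cohesin subunit gene Stag2 averaged 354 ± 19.1 CPM in dKO and 298 ± 9.86 CPM in WT, a relative log2 fold change of 0.25 (SE 0.04, edgeR adjusted p = 0.00221). The repressor gene Rest had 0.27 (edgeR adjusted p = 0.00659), and 0.71 per cell.

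The 3 Tet genes, which encode enzymes that oxidise methylated cytosine, all fell relative to the library. Tet1 averaged 75.3 ± 4.41 CPM in dKO and 94.3 ± 3.40 CPM in WT, Tet2 95.6 ± 2.65 CPM in dKO and 117 ± 4.81 CPM in WT, and Tet3 159 ± 10.9 CPM in dKO and 194 ± 9.27 CPM in WT. Their log2 fold changes were -0.32, -0.30 and -0.29 (edgeR adjusted p = 0.000678, 0.000441 and 0.00239). Per cell these were 0.11 for Tet1, 0.14 for Tet2 and 0.15 for Tet3, and none passed. Without WT 2, 3 and 4, Tet2 alone of the 22 genes passed in either direction, at -0.24 (edgeR adjusted p = 0.0379). In that comparison, 2.51% of all genes were called higher and 0.949% lower. Per cell, 18 of the 22 genes rose, with a median of 0.47, beside 61.1% of all genes and their median of 0.43.

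Of the genes for intracellular and membrane partners, 21 were tested, and 4 rose (Cyfip1, Nckap1, Cdh2 and Set) and 2 fell (Wasf1 and Cyfip2) relative to the library, with a median of -0.01, beside 13.7% of all genes higher and 12% lower. Cdh2 encodes N-cadherin, the partner of Pcdh19, and averaged 572 ± 35.0 CPM in dKO and 457 ± 15.02 CPM in WT (SD, n = 4 and 5), a log2 fold change of 0.32 (SE 0.05, edgeR adjusted p = 0.000880). Cdh2 alone of the 21 passed without WT 2, 3 and 4, at 0.35 (edgeR adjusted p = 0.0303), beside 2.51% of all genes higher and 0.949% lower. The WAVE complex drives actin branching and is bound by clustered and delta protocadherins. Of its genes, Cyfip1 and Nckap1 rose and Wasf1 and Cyfip2 fell relative to the library, while the other WAVE genes tested did not pass. Cyfip1 averaged 141 ± 9.47 CPM in dKO and 121 ± 4.43 CPM in WT (0.22, edgeR adjusted p = 0.00658), while Cyfip2 averaged 141 ± 7.64 CPM in dKO and 162 ± 4.63 CPM in WT (-0.21, adjusted p = 0.00431). Per cell, Cyfip1 had 0.65 (edgeR adjusted p = 9.05e-06) and Cyfip2 had 0.23 (adjusted p = 0.0565). Set, whose product binds and inhibits protein phosphatase 2A, had 0.21 (edgeR adjusted p = 0.00759). Per cell, 16 of the 21 genes rose, with a median of 0.42, beside 61.1% and 0.43 over all genes.

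Many protocadherins are expressed in neurons, and neuron markers also differed between the groups relative to the library. Of 14 neuron markers tested, 6 fell relative to the library, with a median log2 fold change of -0.29, beside 12% of all genes called lower. Without WT 2, 3 and 4, 2 of the 14 (Dcx and Ina) passed as lower, beside 0.949% of all genes. Per cell with all libraries, 4 of the 14 rose and none fell, beside 61.1% and 0.698% of all genes. Their per-cell median was 0.14, beside 0.43 over all genes. The summed level of the 14 markers was 2447 to 2694 CPM in dKO, against 3352 to 3471 CPM in WT 2, 3 and 4 and 2875 to 3326 CPM in WT 1 and WT 5. Of 9 radial glia markers, 3 rose (Vim, Nes and Hes1) and 2 fell (Fabp7 and Hes5) relative to the library. The median log2 fold change of the 9 was 0.07, and 13.7% of all genes were called higher and 12% lower. Vim, Nes and Hes1 also passed as higher without WT 2, 3 and 4, beside 2.51% of all genes. Per cell, 7 of the 9 rose and 1 fell, beside 61.1% and 0.698% of all genes. The per-cell median of the 9 was 0.50, beside 0.43 over all genes. The summed level of the 9 markers was 3527 to 3998 CPM in dKO and 2201 to 2606 CPM in WT, mostly from Vim, which averaged 1689 ± 259 CPM in dKO and 709 ± 87.9 CPM in WT, and Nes, which averaged 1178 ± 73.6 CPM in dKO and 784 ± 58.5 CPM in WT (SD, n = 4 and 5). Summed markers of mesenchyme and pericytes were at 839 to 1178 CPM in dKO and 924 to 1138 CPM in WT, microglia at 65.7 to 82.3 CPM in dKO and 55.7 to 69.8 CPM in WT, choroid plexus at 168 to 229 CPM in dKO and 116 to 454 CPM in WT, and erythroid cells at 1936 to 3496 CPM in dKO and 2433 to 6520 CPM in WT. The part of these differences in the protocadherin levels was not tested.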

How the data were processed

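Per the labels' protocols, telencephalon cells of each embryo were counted, ERCC spike-ins were added to the lysed pellets in proportion to the cells, and stranded libraries of total RNA (350 ng each) were read as paired ends of 100 bp. The deposited files, 1 for each library, held raw counts of reads by gene symbol; per the submitters' processing notes, STAR, HTSeq and the mm9 build were used. Versions, annotation and strand setting were not stated there. Rows that name no gene stayed out of library sizes and tests: reads in no gene (32.03% to 41.3% of all reads), ambiguous reads (0.301% to 0.364%) and multi-mapped reads (15.7% to 18.3%). Similar beta genes may be undercounted for that reason, and genes with an exon overlap on the opposite strand in GENCODE M21 (Pcdh7, Pcdh8, Pcdh10, Pcdh19, Pcdha4 and Pcdhb12) or the same strand (Pcdhb21 with Pcdhb22, and Pcdha3, Pcdha4 and Pcdhga9 with their clusters) are uncertain.

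Counts were tested in R 4.3.3 by edgeR 4.0.16 (glmQLFTest, p-values adjusted by Benjamini-Hochberg over the 17182 genes kept by filterByExpr, threshold 0.05), all 9 libraries in 1 fit with no covariate. The relative fit used TMM normalization, which compares a gene with the typical gene of its library. The per-cell fit took the summed count of the 92 spike-ins as library size, a value that all genes share, so its p-values are not independent between genes. SE was taken as log2 fold change over the square root of F. The scripts were tested on simulated counts. P-values cover the spread between these embryos; litters were not given. Alternatives were DESeq2 1.42.0, limma-voom (limma 3.58.1), RLE scaling or spike-ins with a mean of at least 1000 counts, no filter, a mean count of at least 50, a replicate block, and libraries left out. Same-numbered dKO and WT libraries did not deviate together, so the numbers were not taken as pairs.

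All members may be named. Values in every library are given for each non-clustered member, each clustered member called and the highest of each cluster. Of each list of other genes, the 4 with the smallest relative p and the 2 with the smallest per-cell p are named, with Ctcf and Lats1; further genes are named where few passed. Members, lists and tests were chosen with earlier results of these data known. Exon lengths come from GENCODE M21, of another build than the files, so no gene coordinates are given beyond the RefSeq promoters.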

Additional observations from a re-analysis of the deposited data

How the results depend on the processing

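Relative to the library, 11 members were called lower; DESeq2 called 15 (10 of them shared) and limma-voom 11 (9 shared). RLE scaling gave 11, no filter 11 and a mean count of at least 50 gave 13. Leaving out 1 library gave 7 to 17, with 7 without dKO 1, WT 2 or WT 3 and 17 without WT 1 or WT 5. Leaving out WT 2, 3 and 4 together gave 2 lower relative to the library, with a median log2 fold change of -0.043 for beta genes and -0.10 for all members. Per cell it gave 0 lower (1 with all libraries), with medians of 0.36 for beta genes and 0.32 for all members. Per cell, leaving out 1 library gave 5 to 6 higher and 0 to 2 lower, with 2 without WT 1 and 0 without WT 3 or WT 4. The replicate block gave 11 lower relative to the library and, per cell, 5 higher and 0 lower; same-numbered libraries had correlations of -0.16, -0.13, -0.29 and 0.16. The cause of these shifts was not tested. Pcdhb13 lost its call in 12 alternatives, Pcdhb5 in 9, Pcdhb19 in 8 and Pcdhb7 in 4, while Pcdh9, Pcdh15, Pcdh17, Pcdha4 and Pcdhga9 lost theirs only without WT 2, 3 and 4. Pcdh11x passed in 8 alternatives. Over all members and alternatives, none reversed among calls, 44 values no longer passed and 35 newly passed. With no minimum on the summed count, the list had 37 members. Beta counts of 4 to 497 per library limit what single beta genes can show.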
